A study of Canis lupus familiaris with 29 samples.

Results

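The genes described here are the insulin-like growth factors IGF1 and IGF2, their receptors IGF1R and IGF2R, the binding proteins IGFBP2, IGFBP3, IGFBP4, IGFBP5 and IGFBP6, and DLK1. They were chosen by gene name, and the 10 names each matched 1 of the 30951 genes listed in the deposited count table. The study sequenced RNA from canine pheochromocytomas and paragangliomas (PPGLs), tumors of chromaffin cells in the adrenal medulla and of the paraganglia outside it, and from normal adrenal medulla (NAM). The 29 samples were 10 NAMs and 19 PPGLs, and the PPGLs were split into PPGL group 1, with 7 tumors, and PPGL group 2, with 12. The NAM donors were healthy laboratory dogs, whereas each PPGL had arisen spontaneously in a privately kept dog, so tumor and source of the animals cannot be told apart. The authors drew groups 1 and 2 from a principal component analysis of the same expression data, so a p between the groups describes that split. The labels give no breed, age or sex and do not say which tumors lay outside the adrenal gland.

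IGF1 and IGF2 are secreted peptides that activate the tyrosine kinase receptor IGF1R, which signals through insulin receptor substrates, PI3K and AKT to growth and survival. IGF2R, the cation-independent mannose 6-phosphate receptor, carries IGF2 to lysosomes for breakdown, and the IGF-binding proteins hold both ligands outside the cell until proteases release them. DLK1 is a membrane protein of the Notch ligand family from an imprinted gene, as IGF2 is, and in humans both are known from the fetal adrenal gland and the adrenal medulla.

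Each sample gave between 19258054 and 35918182 counts in NAMs, between 18493540 and 31919833 in group 1 and between 18208718 and 24569667 in group 2. Levels are given as CPM, counts scaled to the library total after TMM normalization, and levels of different genes are compared as CPM per kb of exon. A count of 0 allows up to 3 counts, which in NAMs came to 0.0779 to 0.164 CPM and in PPGLs to 0.0895 to 0.175 CPM, for counting error alone. Of the 10 genes, 9 passed the low-count filter in all 4 comparisons and DLK1 passed in none. Differences are log2 FC ± SE from edgeR's quasi-likelihood (QL) test, with FDR-adjusted p over all genes tested, and a gene is called when that p is below 0.05 against NAMs or below 0.1 between the PPGL groups. Groups 1 and 2 were compared with the same NAMs, so those comparisons are not independent. Where a Mann-Whitney U-test is given, higher and lower are the sign of edgeR's log2 FC. Shares of all genes are edgeR's, and none was counted for an unadjusted p. Of 14766 genes in PPGLs, DESeq2 called 3511 higher and 2546 lower, and the Mann-Whitney U-test 2917 and 2994. In group 1 the counts were 3341 and 2497, and 1967 and 2314, of 15201. In group 2 they were 3049 and 2518, and 2779 and 2954. Between the groups they were 916 and 877, and 160 and 232, of 14666.

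The tissue labels were checked against markers of chromaffin cells, which make and store catecholamines. All 13 of the 14 chromaffin markers found by name had counts in each NAM and in each group 2 tumor, and CHGA was not found by name. Summed over the 13, NAMs had 17969.8 to 97256 CPM, group 1 8789.8 to 119302 CPM and group 2 21025 to 103415 CPM, with CHGB the most abundant gene in each group. Of the 13 tested, 3 were called higher and 1 lower in PPGLs than in NAMs, where 22.3% and 15.2% of all genes were, and DESeq2 called 4 and 2 and the Mann-Whitney U-test 3 and 2. In group 1 it was 3 higher and 0 lower, against 21.0% and 14.1% of all genes, and in group 2 4 and 1, against 18.4% and 14.5%. Some tumor libraries stood apart. In group 1 replicate 7, CHGB was at 27.1 CPM, against 6827 CPM in the next lowest PPGL and 5688 CPM in the lowest NAM. The same library had the highest HAND2 (552 CPM) of all 29 samples, a transcription factor of the sympathoadrenal lineage. Its median Spearman rho with the other group 1 libraries was 0.805, the lowest such value of the 29 samples, while the other group 1 libraries had 0.837 to 0.890. In group 1 replicate 5, 7 of 13 chromaffin markers lay below each NAM, with TH at 2.15 CPM and DDC at 0.358 CPM. Group 2 replicate 11 had a median rho of 0.845 with the other group 2 libraries, which themselves had 0.887 to 0.934, and 6 of 13 chromaffin markers below each NAM, as many as group 1 replicate 3. It also had the highest fibroblast and pericyte marker sums of the 29 samples, given below, and the highest IGFBP2 and IGFBP6.

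Markers of other cell types were compared as well, first those of the adrenal cortex, which makes steroid hormones and surrounds the medulla. The 10 adrenocortical markers found, without CYP11B1 and CYP11B2, summed to 12669 to 62090 CPM in NAMs with CYP17A1 mostly the most abundant. In group 1 they summed to 23.5 to 1139 CPM with STAR the most abundant, and 6 of the 7 tumors had at least 1 of the 10 at no count, NR0B1, MC2R and MRAP most often. In group 2 they summed to 202 to 31169 CPM with CYP17A1 mostly the most abundant, so that the sums in group 1 lay below each NAM and those in group 2 reached into the NAM range. Of the 10, 9 were called lower in PPGLs than in NAMs, 10 in group 1, 9 in group 2 and 9 in group 1 against group 2, with none called higher, where 15.2%, 14.1%, 14.5% and 2.95% of all genes were called lower. NR0B1 reached the count cutoff of the filter in no group 1 tumor and so had to be lower there, against NAMs and against group 2. In bulk tissue, fewer cells of a type and less RNA per cell cannot be told apart.

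The counts that follow stand beside all genes, of which 22.3% were called higher and 15.2% lower in PPGLs, 21.0% and 14.1% in group 1 and 18.4% and 14.5% in group 2. Of 8 fibroblast markers, 6 were called higher and 0 lower in PPGLs than in NAMs, 3 and 1 in group 1 and 6 and 0 in group 2, while for PPGLs DESeq2 called 5 and 1 and a Mann-Whitney U-test 3 and 1. Without group 1 replicate 3, 1 was called higher in group 1. Fibroblast markers had sums of 647 to 1237 CPM in NAMs, 527 to 6874 CPM in group 1 and 2039 to 27241 CPM in group 2, with THY1 the most abundant. Of 7 pericyte and smooth muscle markers, 4 were called higher in PPGLs, 2 by DESeq2 and 2 by the Mann-Whitney U-test, and 4 in group 2. Without NAM replicate 2 or group 2 replicate 11, 1 was called in PPGLs, and without the latter 2 in group 2. In group 1 edgeR called 0 of the 7, with 2 at an unadjusted p below 0.05, DESeq2 2 higher and 0 lower and the Mann-Whitney U-test 1 higher and 0 lower. They had sums of 370.3 to 1612 CPM in NAMs, 264 to 4009 CPM in group 1 and 775 to 5177 CPM in group 2, with RGS5 the most abundant. Of 8 endothelial markers, 5 were called lower in PPGLs, as by DESeq2 and the Mann-Whitney U-test, 1 in group 1 (4 without group 1 replicate 5) and 4 in group 2, with sums of 555 to 1449.9 CPM in NAMs, 272 to 1645 CPM in group 1 and 356 to 1275 CPM in group 2, VWF the most abundant in NAMs and PLVAP in PPGLs. Among 8 macrophage markers 2 were called lower in PPGLs, 2 by DESeq2 and 3 by the Mann-Whitney U-test, 2 in group 1 and 1 in group 2. Both hepatocyte markers tested, of 7 found, were called lower in PPGLs and in group 1, and 1 in group 2. In group 1, 1 of the 2 reached the count cutoff of the filter in no tumor and so had to be lower. In PPGLs 1 macrophage marker was left without NAM replicate 2, and 1 hepatocyte marker without NAM replicate 6 or group 2 replicate 10 or 11. The sums of macrophage and hepatocyte markers were 306 to 1054 CPM with C1QB the most abundant, and 25.8 to 165 CPM with APOA1 the most abundant, in NAMs. The macrophage markers summed to 180.1 to 926 CPM in group 1 and 134 to 1754 CPM in group 2, and the hepatocyte markers to 0.738 to 56.9 and 3.75 to 92.7 CPM. For 6 Schwann and sustentacular markers edgeR called 0 in PPGLs, with 2 at an unadjusted p below 0.05, while DESeq2 called 0 higher and 2 lower and the Mann-Whitney U-test 0 higher and 4 lower. In each tumor group edgeR called 0 too, with 0 and 2 at that p, where DESeq2 called 0 higher and 0 lower in group 1 and 0 higher and 2 lower in group 2, and the Mann-Whitney U-test 0 higher and 2 lower and 0 higher and 3 lower. The 7 found summed to 59.3 to 169 CPM in NAMs, 2.50 to 239 CPM in group 1 and 11.2 to 128 CPM in group 2. For 4 adipocyte markers edgeR called 0 in PPGLs, with 1 at an unadjusted p below 0.05, while DESeq2 called 1 higher and 0 lower and the Mann-Whitney U-test 0 higher and 0 lower. By group edgeR called 0 higher and 1 lower in group 1 and 1 and 0 in group 2, calls lost without any 1 of 10 and of 3 libraries. The 5 found summed to 35.0 to 54.9 CPM in NAMs, 23.8 to 56.3 CPM in group 1 and 20.7 to 96.5 CPM in group 2. Between the groups edgeR called 0 of 8 fibroblast markers, with 5 at an unadjusted p below 0.05 and a median log2 FC of -2.05 (all genes 0.035). It called 1 of 7 pericyte and smooth muscle markers lower in group 1 and 1 of 13 chromaffin markers higher, where 2.95% and 3.97% of all genes were. For endothelial, Schwann and sustentacular, macrophage, hepatocyte and adipocyte markers it called 0. The part of each cell type in the differences of the IGF genes was not tested.

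Compared by level per kb of exon, IGFBP4 was the most abundant of the 10 genes in NAMs, at 153 ± 68.6 CPM per kb (mean ± SD, n = 10). IGF2R followed at 33.9 ± 6.35 CPM per kb, and the lowest IGFBP4 value lay above the highest IGF2R value. The next levels were IGF1R at 19.7 ± 6.79 and IGFBP5 at 16.0 ± 6.74 CPM per kb, whose values overlapped. IGF2 (5.74 ± 2.03 CPM per kb), IGFBP3 (5.47 ± 3.15 CPM per kb) and IGFBP6 (4.51 ± 1.02 CPM per kb) overlapped as well, and their order was not the same in each NAM. IGFBP2 at 2.21 ± 1.35 and IGF1 at 1.27 ± 0.638 CPM per kb were lower, and DLK1 at 0.0144 ± 0.0149 CPM per kb lay below each of the others in all 10 NAMs. The exon length of IGFBP3 is 876 bases, a multiple of 3 and the shortest of the 10, so its level per kb may rest on a gene model without untranslated regions. The longer exon lengths of IGF1, IGF2 and IGFBP6 are multiples of 3 too.

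In group 2 the order again opened with IGFBP4 (42.9 ± 32.2 CPM per kb, n = 12) and IGF2R (27.6 ± 9.53 CPM per kb), but IGFBP4 was the higher in only 7 of 12 tumors. IGFBP5, IGF1R, IGFBP2 and IGFBP3 followed with means between 7.78 and 9.17 CPM per kb and overlapping values. IGFBP6 (5.07 ± 4.66 CPM per kb), IGF2 (3.27 ± 3.29 CPM per kb) and IGF1 (1.17 ± 1.35 CPM per kb) came after them, each overlapping its neighbor, and DLK1 was at 0.0390 ± 0.0574 CPM per kb. In group 1 the highest mean was that of IGFBP5 at 26.5 ± 57.2 CPM per kb (n = 7), yet IGFBP5 exceeded IGF2R in replicate 7 alone. Without that tumor IGFBP5 was at 4.89 ± 2.53 CPM per kb (n = 6), the fifth highest, and IGF2R was first. In all 7, IGF2R was at 26.2 ± 7.82, IGFBP3 at 21.4 ± 25.2 and IGFBP4 at 11.9 ± 6.31 CPM per kb. Replicate 5 alone had 71.6 CPM per kb of IGFBP3, and without it IGFBP3 was at 13.0 ± 13.1 CPM per kb. IGF1R (9.69 ± 6.38 CPM per kb) and IGFBP2 (8.01 ± 11.7 CPM per kb) came next, and all neighbors in this order overlapped. IGFBP2 was at 4.78 ± 8.71 CPM per kb without replicate 7. IGF2 (2.4 ± 3.55 CPM per kb), IGFBP6 (1.98 ± 1.31 CPM per kb), IGF1 (0.449 ± 0.216 CPM per kb) and DLK1 (0.115 ± 0.147 CPM per kb) were lowest. Without replicate 1 IGF2 was at 1.14 ± 1.37 CPM per kb, and without replicate 4 DLK1 was at 0.0724 ± 0.102 CPM per kb.

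**Figure D1:**
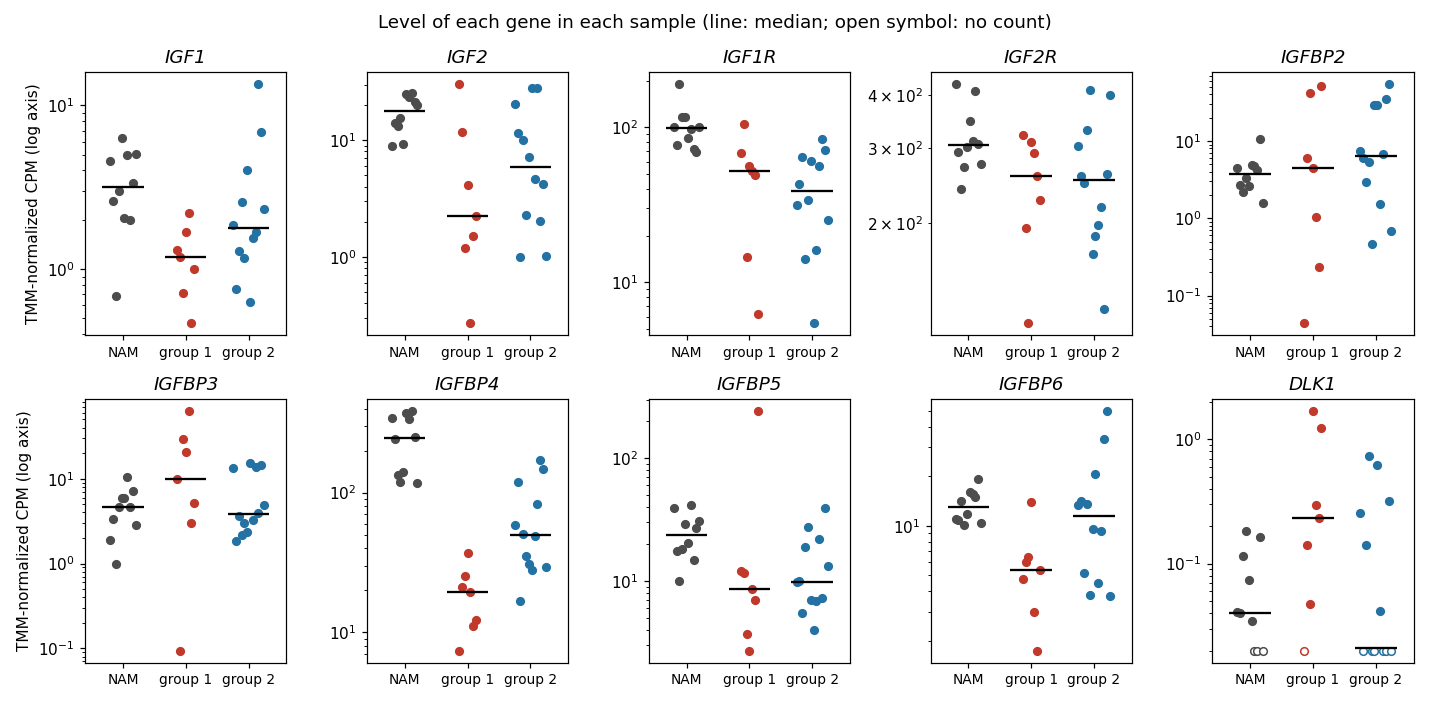
Level of each of the 10 genes in each sample, as TMM-normalized CPM on a log axis, for NAMs (10 samples), PPGL group 1 (7) and PPGL group 2 (12). Each point is 1 sample, black lines are group medians and open symbols at the bottom are samples without a count; IGFBP4 in all 7 group 1 tumors lies below each NAM.

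Between PPGLs and NAMs, 2 of the 9 genes tested were called lower, IGFBP4 and IGF1R, and none was called higher, while 15.2% of all genes were called lower and 22.3% higher. At an unadjusted p below 0.05 there were 4 of 9, DESeq2 called 1 higher and 3 lower, and the Mann-Whitney U-test 0 higher and 4 lower. In group 1 against NAMs, IGFBP3 was called higher and IGFBP4, IGF1 and IGFBP6 lower, against 21.0% of all genes called higher and 14.1% lower. There 6 of 9 had an unadjusted p below 0.05, and DESeq2 called 1 higher and 5 lower, beside 3341 and 2497 of all 15201 genes. In group 2 against NAMs, none was called higher and 2 lower, IGFBP4 and IGF1R, against 18.4% higher and 14.5% lower. In group 2 3 of 9 had an unadjusted p below 0.05. DESeq2 called 1 higher and 2 lower there, beside 3049 and 2518 of all 15201 genes. The Mann-Whitney U-test called 0 and 3, beside 2779 and 2954. Between group 1 and group 2, IGFBP4 alone was called, lower in group 1, against 3.97% of all genes called higher and 2.95% lower. The median log2 FC of the 9 genes was -0.33 between PPGLs and NAMs, where that of all genes was 0.13. It was -1.03 in group 1 (all genes 0.13), -0.30 in group 2 (all genes 0.095) and -0.067 between the groups (all genes 0.035). Over all 14766 genes the excess of higher calls in PPGLs depended on the method. By edgeR 3295 were called higher and 2246 lower, and by DESeq2 3511 and 2546. The Mann-Whitney U-test gave 2917 and 2994, with higher and lower taken from the sign of edgeR's log2 FC and not from the ranks. A fit with the sample number as a replicate block gave 2273 and 2380. The labels state no pairing of dogs behind that number, so the block is not read as evidence on a call. IGFBP4 in group 1 was the single result past the study's fold threshold, a log2 FC over 3 or under -3.

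**Figure D2:**
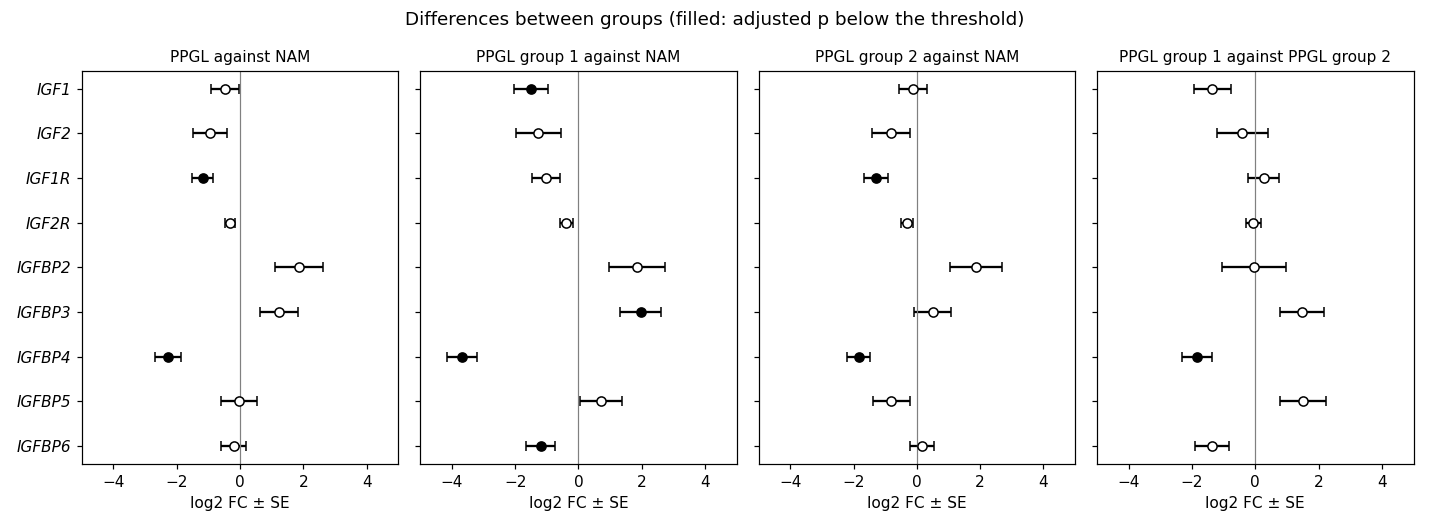
Differences of the 9 tested genes as log2 FC ± SE from edgeR's QL test in 4 comparisons: PPGLs, group 1 and group 2 against NAMs, and group 1 against group 2. Filled points are called, and IGFBP4 is called lower in all 4, from -3.68 in group 1 to -1.84 in group 2 against NAMs.

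IGF1 (ENSCAFG00000007304, chromosome 15, 41202518 to 41275794 on the minus strand in CanFam3.1) encodes the growth hormone-regulated ligand of IGF1R. IGF1 levels in CPM ran from 0.687 to 6.35 (median 3.16) in NAMs, from 0.467 to 2.21 (median 1.18) in group 1 and from 0.625 to 13.5 (median 1.77) in group 2. Group 1 tumors all lay under the NAM median but overlapped the lower NAMs, of which replicate 3 was the lowest, and in group 2 replicates 10 and 11 exceeded each NAM. The log2 FC was -1.49 ± 0.55 (adjusted p 0.0332) in group 1 and -0.12 ± 0.45 (adjusted p 0.860) in group 2 against NAMs, and -1.36 (adjusted p 0.202) between the groups, so an effect in group 1 alone was not shown. The group 1 call was lost without any 1 of NAM replicates 5, 7 and 10 and group 1 replicates 3, 6 and 7, with adjusted p 0.0505 to 0.0667. With the mean log2 level of the 10 adrenocortical markers as a covariate it was lost too, at -0.25 (adjusted p 0.963), while the other alternatives kept it. Between the groups the 3-group fit called IGF1 lower in group 1, at -1.37 (adjusted p 0.0931), within 0.0931 to 0.965 over the alternatives. For all PPGLs the value was -0.49 (adjusted p 0.404), and without group 2 replicate 10 it was -0.90 (adjusted p 0.0485), where leaving out each library in turn gave adjusted p 0.0485 to 0.586.

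IGF2 (ENSCAFG00000010090, chromosome 18, 46294019 to 46311982 on the minus strand) encodes the ligand that binds IGF1R and IGF2R and is imprinted in mammals. IGF2 levels in CPM ran from 8.91 to 25.4 (median 17.7) in NAMs, from 0.268 to 30.4 (median 2.25) in group 1 and from 0.996 to 28.2 (median 5.89) in group 2. The spread was far wider in tumors than in NAMs: 5 of 7 group 1 and 7 of 12 group 2 tumors lay below each NAM, while group 1 replicate 1 and group 2 replicates 7 and 9 lay above each NAM. None of the differences passed the threshold, at -0.96 ± 0.53 (adjusted p 0.157) for all PPGLs, -1.26 (adjusted p 0.176) in group 1 and -0.82 (adjusted p 0.305) in group 2. Without group 1 replicate 1, IGF2 in group 1 was lower than in NAMs at -2.34 (adjusted p 0.0143), where leaving out other libraries gave adjusted p up to 0.284. The replicate block also called it lower in group 1, at -2.44 (adjusted p 0.0181), within 0.0181 to 0.694 over the alternatives. For all PPGLs the Mann-Whitney U-test gave an adjusted p of 0.0372 and the replicate block gave -1.69 (adjusted p 0.0213), within 0.0213 to 0.539 over all alternatives. An unnamed gene on the same strand overlaps the exons of IGF2 and had no count in NAMs and at most 7 in a tumor. Per kb, IGF2 exceeded IGF1 in each NAM, by 1.31 to 17.1 times. The ratio of IGF2 to IGF1 per kb ran from 0.108 to 20.6 in group 1 and from 0.133 to 40.2 in group 2, on both sides of 1.

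IGF1R (ENSCAFG00000010881, chromosome 3, 41794623 to 42090387 on the plus strand) encodes the receptor that signals for both ligands. IGF1R levels in CPM ran from 69.5 to 191 (median 98.6) in NAMs, from 6.28 to 105 (median 52.4) in group 1 and from 5.44 to 83.5 (median 38.6) in group 2. The values overlapped, but 6 of 7 group 1 and 10 of 12 group 2 tumors lay below each NAM, with replicate 7 the lowest in both groups and group 1 replicate 2 the highest tumor. NAM replicate 3 was far above the other NAMs, the next of which was at 117 CPM. The log2 FC was -1.18 ± 0.33 (adjusted p 0.00608) for all PPGLs and -1.29 ± 0.38 (adjusted p 0.00994) in group 2, and both calls held whichever single library was left out. In group 1 it was -1.03 ± 0.45 (adjusted p 0.0731), which did not pass, and it passed without group 1 replicate 2 at -1.30 (adjusted p 0.0305) and without group 2 replicate 7 at -1.03 (adjusted p 0.0469). It was also called by DESeq2, at -1.04 (adjusted p 0.0422), and by the Mann-Whitney U-test, with adjusted p 0.0231, within 0.0231 to 0.955 over the alternatives. Leaving out each library in turn gave adjusted p 0.0305 to 0.140 there, and the test between groups 1 and 2 gave 0.27 (adjusted p 0.807). With the cortical covariate the value was -1.22 (adjusted p 0.0908) for all PPGLs and -1.01 (adjusted p 0.270) in group 2, the highest adjusted p of all alternatives, which otherwise reached down to 0.000266 and 0.000569.

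IGF2R (ENSCAFG00000000691, chromosome 1, 49161444 to 49262277 on the plus strand) encodes the receptor that clears IGF2 and sorts lysosomal enzymes. IGF2R levels in CPM ran from 240.4 to 426 (median 305) in NAMs, from 116 to 323 (median 257) in group 1 and from 125 to 412 (median 253) in group 2. The groups overlapped widely, with 3 of 7 and 5 of 12 tumors below each NAM and none above. The log2 FC was -0.33 ± 0.16 (adjusted p 0.120) for all PPGLs, -0.38 (adjusted p 0.172) in group 1 and -0.30 (adjusted p 0.211) in group 2, and none passed. With the replicate block IGF2R was called lower in all PPGLs, at -0.45 (adjusted p 0.0303), within 0.0303 to 0.565 over the alternatives. Per kb, the ratio of IGF2R to IGF1R was 0.698 to 3.14 in NAMs (median 1.96), 1.02 to 20.0 in group 1 (median 3.07) and 0.830 to 18.9 in group 2 (median 4.32). The highest ratios belonged to replicate 7 of each tumor group, the tumors with the lowest IGF1R of their groups.

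IGFBP4 (ENSCAFG00000016071, chromosome 9, 22126470 to 22182518 on the minus strand) encodes a binding protein that keeps IGFs from their receptor until PAPPA cleaves it. IGFBP4 levels in CPM ran from 117 to 384 (median 248) in NAMs, from 7.40 to 36.9 (median 19.3) in group 1 and from 16.9 to 172 (median 49.8) in group 2. All 7 group 1 tumors lay below each NAM, as did 9 of 12 group 2 tumors, and the 3 exceptions were replicates 2, 10 and 11. IGFBP4 was called lower in each comparison, with a log2 FC of -2.28 ± 0.40 (adjusted p 7.37e-05) for all PPGLs, -3.68 ± 0.48 (adjusted p 2.40e-06) in group 1 and -1.84 ± 0.36 (adjusted p 0.000402) in group 2. Group 1 was lower than group 2 at -1.84 ± 0.46 (adjusted p 0.0356), with the highest group 1 value, 36.9 CPM, above the lowest of group 2. Each of the 4 calls held whichever single library was left out. Between the groups the value was -1.27 (adjusted p 0.339) with the replicate block and -1.73 (adjusted p 0.122) without group 1 replicates 5 and 7, which ended that call, within adjusted p 0.00107 to 0.795 over all alternatives.

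IGFBP4 and the cortical sums rose together in NAMs, less closely in group 2 and not in group 1. Spearman's rho between them was 0.85 in NAMs (0.80 to 0.90 with each sample left out in turn), 0.50 in group 2 (0.35 to 0.77, the highest without replicate 11) and -0.29 in group 1 (-0.49 to 0.14, the highest without replicate 1), given as a description. NAM replicates 3, 4, 5 and 10 had the lowest IGFBP4 of the NAMs, 117 to 141 CPM, and the lowest cortical sums, 12669 to 27582 CPM, while the other NAMs had 244 to 384 CPM of IGFBP4 and cortical sums of 32902 to 62090 CPM. In group 2 the tumor with the highest IGFBP4, replicate 10, also had the highest cortical sum, 31169 CPM. Group 2 replicate 11 had 148 CPM of IGFBP4 at a cortical sum of 504 CPM. In group 1 the tumor with the highest cortical sum, replicate 1 at 1139 CPM, had the lowest IGFBP4 of all 29 samples, 7.40 CPM. A fit that held the cortical score as covariate gave a log2 FC of IGFBP4 of -0.91 (adjusted p 0.162) for all PPGLs, -1.55 (adjusted p 0.551) in group 1, -1.07 (adjusted p 0.187) in group 2 and -0.78 (adjusted p 0.795) between the groups. Each stayed negative and none passed, against adjusted p as low as 1.49e-07, 1.91e-17, 2.91e-06 and 0.00107 in other alternatives. The score was 8.06 or more in NAMs and 2.93 or less in group 1, so score and group cannot be told apart there. The part of cortical tissue in the IGFBP4 difference was not tested.

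**Figure D3:**
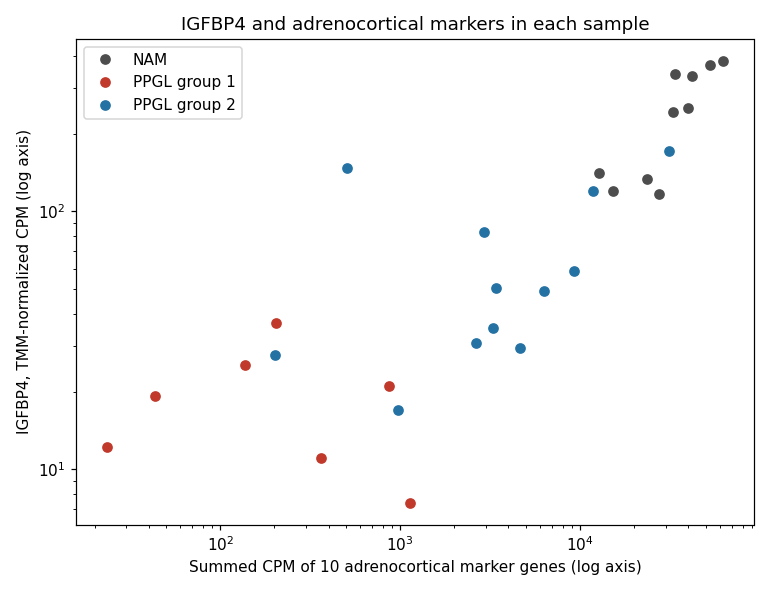
IGFBP4 in CPM against the summed CPM of 10 adrenocortical markers, both on log axes, with 1 point per sample in 3 groups. Group 1 tumors lie below each NAM on both axes, group 2 tumors reach into the ranges of both other groups on both axes, and group 2 replicate 11 has 148 CPM of IGFBP4 at a cortical sum of 504 CPM.

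IGFBP5 (ENSCAFG00000014474, chromosome 37, 23579841 to 23596870 on the minus strand) encodes a binding protein that also attaches to extracellular matrix. IGFBP5 levels in CPM ran from 9.96 to 41.9 (median 23.5) in NAMs, from 2.71 to 243 (median 8.59) in group 1 and from 3.94 to 39.3 (median 9.89) in group 2. The value of 243 CPM belonged to group 1 replicate 7, the library with little CHGB, while the next highest group 1 tumor had 12.1 CPM. Without it, group 1 ran from 2.71 to 12.1 CPM (median 7.79, n = 6), and 4 of 7 group 1 and 7 of 12 group 2 tumors lay below each NAM. With all samples the log2 FC was -0.039 ± 0.57 (adjusted p 0.963) for all PPGLs, 0.72 ± 0.66 (adjusted p 0.420) in group 1 and -0.81 ± 0.58 (adjusted p 0.292) in group 2. Without group 1 replicate 7 it was -1.05 ± 0.34 (adjusted p 0.0145) for all PPGLs and -1.69 ± 0.46 (adjusted p 0.00528) in group 1, so that 1 library set both the sign in group 1 and the calls. DESeq2 gave -1.04 (adjusted p 0.00745) for all PPGLs and -1.52 (adjusted p 0.00122) in group 1. Over the alternatives the adjusted p ran from 0.00745 to 0.956 and from 0.00122 to 0.468. The DESeq2 values lie close to those without group 1 replicate 7. With that library, the group 1 mean of 41.2 CPM was above the NAM mean of 24.9 CPM. DESeq2 was run with its default handling of outlying counts, and whether it kept the count of that library was not checked. Its IGFBP5 calls are therefore not read as separate from the fit without that library. By the Mann-Whitney U-test the adjusted p was 0.0205 for all PPGLs and 0.0449 in group 2, where the alternatives ranged over 0.0449 to 0.332. Without group 2 replicate 11, which held the highest value of its group, the group 2 log2 FC was -1.06 (adjusted p 0.164). Between the groups the log2 FC was 1.50 (adjusted p 0.265) with all tumors and -0.87 ± 0.48 (adjusted p 0.380) without group 1 replicate 7.

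IGFBP2 (ENSCAFG00000014490, chromosome 37, 23559501 to 23569312 on the plus strand), whose product binds IGF2 more strongly than IGF1, lies 10528 bases from IGFBP5. IGFBP2 levels in CPM ran from 1.57 to 10.5 (median 3.75) in NAMs, from 0.0438 to 50.9 (median 4.48) in group 1 and from 0.468 to 54.9 (median 6.44) in group 2. Tumors lay on both sides of the NAMs: group 1 replicates 3 and 7 and group 2 replicates 6, 7, 10 and 11 were above each NAM, and 3 of 7 and 3 of 12 tumors were below each NAM. The lowest, group 1 replicate 1, had 1 count. The log2 FC was 1.86 ± 0.77 (adjusted p 0.0561) for all PPGLs, 1.85 (adjusted p 0.108) in group 1 and 1.86 (adjusted p 0.0804) in group 2, none of which passed. For all PPGLs it passed without any 1 of NAM replicate 9, group 1 replicates 1, 5 and 6, and group 2 replicates 5, 8 and 12, at 1.93 to 2.13 with adjusted p 0.0335 to 0.0477. It also passed by DESeq2, at 1.84 (adjusted p 0.0148), and with library size alone, at 1.96 (adjusted p 0.0458), within adjusted p 0.0148 to 0.495 over the alternatives. In group 2 DESeq2 gave 1.84 (adjusted p 0.0320), within 0.0320 to 0.543. Without group 1 replicate 7 the value was 1.10 ± 0.90 (adjusted p 0.362) in group 1, and without group 2 replicate 11, the tumor with the most IGFBP2, it was 1.46 (adjusted p 0.161) in group 2.

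IGFBP3 (ENSCAFG00000012294, chromosome 16, 1021972 to 1026392 on the plus strand) encodes the main carrier of IGFs in blood. IGFBP3 levels in CPM ran from 0.992 to 10.4 (median 4.63) in NAMs, from 0.0941 to 62.7 (median 9.81) in group 1 and from 1.84 to 15.2 (median 3.80) in group 2. Group 1 held both extremes: replicates 3, 4 and 5 were above each NAM and replicate 2, with 2 counts, was below each. In group 2, replicates 1, 7, 9 and 11 were above each NAM and the others lay within the NAM range. In group 1 IGFBP3 was called higher, with a log2 FC of 1.96 ± 0.66 (adjusted p 0.0206) against 0.50 (adjusted p 0.528) in group 2 and 1.23 (adjusted p 0.105) for all PPGLs, and 1.47 (adjusted p 0.248) between the groups. The group 1 call rested on replicate 5, the tumor with little TH, since without it the value was 1.24 (adjusted p 0.136), where the other left-out libraries kept the call. With the cortical covariate the sign turned, to -0.66 (adjusted p 0.919). The call was also lost by the Mann-Whitney U-test, with an adjusted p of 0.374, with the replicate block, at 1.50 (adjusted p 0.217), and without replicates 5 and 7 together, at 1.39 (adjusted p 0.115). The adjusted p ran from 0.00759 to 0.919 over the alternatives.

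IGFBP6 (ENSCAFG00000028636, chromosome 27, 1989772 to 2067298 on the minus strand) encodes a binding protein that prefers IGF2 over IGF1. IGFBP6 levels in CPM ran from 10.0 to 19.2 (median 13.0) in NAMs, from 1.75 to 13.9 (median 5.37) in group 1 and from 3.72 to 49.7 (median 11.4) in group 2. Of the group 1 tumors 6 of 7 lay below each NAM, with replicate 4 inside the NAM range, while group 2 split into 6 tumors below and 3 above each NAM. The log2 FC was -1.19 ± 0.46 (adjusted p 0.0437) in group 1, 0.16 (adjusted p 0.772) in group 2 and -0.20 (adjusted p 0.723) for all PPGLs. The group 1 call was lost without any 1 of NAM replicates 3, 6, 7, 8 and 9 and group 1 replicates 1, 2, 3, 5, 6 and 7, at -1.21 to -1.03 with adjusted p 0.0541 to 0.0888. It was also lost with library size alone, at -1.09 (adjusted p 0.0508), without the low-count filter, at -1.20 (adjusted p 0.0512), with the cortical covariate, at -1.22 (adjusted p 0.679), and without replicates 5 and 7 together, at -1.03 (adjusted p 0.135), within 0.0123 to 0.679 over the alternatives. Between the groups the value was -1.35 (adjusted p 0.168), and -1.72 (adjusted p 0.0993) without group 1 replicate 4, where leaving out each library gave adjusted p 0.0993 to 0.264. DESeq2 and the 3-group fit called it lower in group 1 than in group 2, with adjusted p 0.0684 and 0.0503, within 0.0503 to 0.592 over the alternatives. Without group 2 replicate 11, the tumor with the most IGFBP6, the sign in group 2 turned, to -0.17 (adjusted p 0.731). Exons of ITGB7 and CSAD on the opposite strand overlap those of IGFBP6, and although the libraries were stranded, it was not stated whether the counting used the strand. ITGB7 had 25 to 77 counts in NAMs and up to 775 in a tumor, and CSAD 92 to 197 and up to 211.

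Together the 5 binding protein genes summed to 97.0 to 263 CPM per kb in NAMs (median 184), 15.6 to 199 in group 1 (median 55.3) and 21.6 to 181 in group 2 (median 56.8). IGFBP4 made up 72.9% to 91.6% of that sum in NAMs and led in all 10. In group 2 its share was 28.9% to 82.0% and it led in 11 of 12 tumors, with IGFBP3 leading in replicate 7. In group 1 its share was 3.84% to 50.6%, and the leading gene per kb was IGFBP3 in replicates 1, 3, 4 and 5, IGFBP4 in 2 tumors and IGFBP5 in replicate 7. A gene model of IGFBP3 longer than 876 bases would change both its count and its length, so its share could move either way. In CPM, without exon length, IGFBP3 was the highest of the 5 in group 1 replicate 5 alone, at 62.7 CPM. IGFBP3 and IGFBP4 were close in group 1 replicate 4, at 42.3% and 41.8%, and closer still in group 2 replicate 7. These shares are descriptions, without a test.

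**Figure D4:**
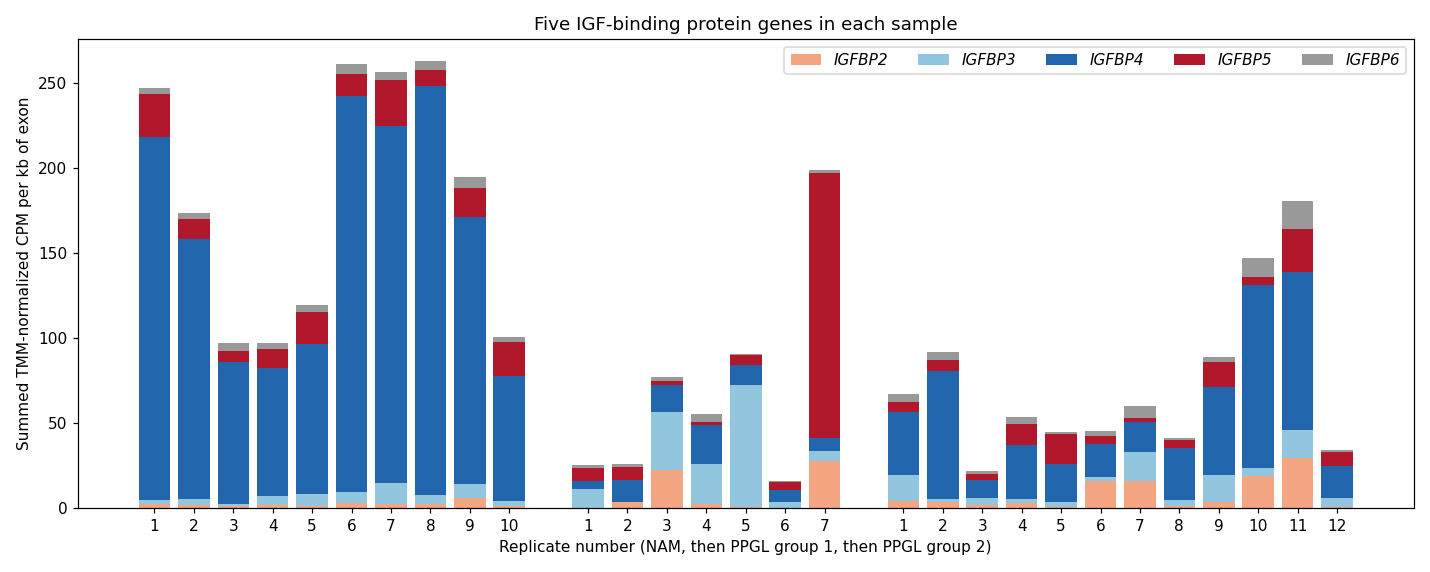
Stacked bars of the 5 binding protein genes in CPM per kb of exon, 1 bar per sample in 3 groups. IGFBP4 fills most of each NAM bar, at least 72.9%, and at most 50.6% of any group 1 bar.

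DLK1 (ENSCAFG00000017925, chromosome 8, 68961744 to 68972761 on the plus strand) was close to the limit of detection. NAMs had 0 to 7 counts each, with 3 of 10 at no count and 9 of 10 at 3 counts or fewer. Group 1 tumors had 0 to 38 counts and group 2 tumors 0 to 16, with 1 of 7 and 6 of 12 at no count. The highest were group 1 replicates 4 and 7, at 1.69 and 1.24 CPM, and group 2 replicates 4 and 7, at 0.729 and 0.625 CPM, against at most 0.182 CPM in a NAM. Fitted without the low-count filter, group 1 was higher than NAMs at 2.88 ± 1.05 (adjusted p 0.0379), and the test between the groups gave 1.52 (adjusted p 0.429). The group 1 value was 2.21 (adjusted p 0.124) without replicate 4 and 2.50 (adjusted p 0.0843) without replicate 7, and neither passed. For all PPGLs the adjusted p was 0.0877 and for group 2 0.313. At these counts the fitted fold depends on the prior count and sets no bound.

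Of 9 genes of binding protein proteolysis tested, STC2 and PAPPA2 passed the filter through tumors alone, with no NAM at its count cutoff, so they had to be higher in all PPGLs together. In group 1 the PAPPA2 call was lost without group 1 replicate 6, with adjusted p 0.201. Of the other 7, 2 were called higher and 2 lower in PPGLs than in NAMs, 1 and 2 in group 1, and 2 and 1 in group 2, with 1 lower in group 1 than in group 2. The higher genes in PPGLs were STC1 and MMP2, and MMP2 lost its call in group 2 without group 2 replicate 11, at 0.77 (adjusted p 0.115). Of all 9 in PPGLs, edgeR called 4 higher and 2 lower, DESeq2 4 and 2 and the Mann-Whitney U-test 2 and 4. For this and the next lists, the shares of all genes called higher and lower were 22.3% and 15.2% in PPGLs, 21.0% and 14.1% in group 1, 18.4% and 14.5% in group 2, and 3.97% and 2.95% between the groups. Calls given for genes of these lists held with each library left out in turn unless said. PAPPA2 encodes a protease that cleaves IGFBP3 and IGFBP5, and stanniocalcins, encoded by STC1 and STC2, inhibit such proteases. STC1 ran from 3.11 to 10.6 CPM (median 5.67) in NAMs and from 1.44 to 349.7 CPM (median 42.0) in PPGLs, with 15 of 19 tumors above each NAM and group 1 holding the 1 tumor below. Its log2 FC was 3.81 ± 0.70 (adjusted p 0.000123). STC2 was above each NAM in 16 of 19 tumors, up to 12.6 CPM, and PAPPA2 in 9 of 19, up to 69.5 CPM. For both, 8 of 10 NAMs had 3 counts or fewer and the highest NAM was at 0.255 and 0.390 CPM, so no fitted difference is given. The lower genes were ADAM9, at -0.83 ± 0.20 (adjusted p 0.00165), and HTRA1, at -0.88 ± 0.36 (adjusted p 0.0499), both of them proteases that can cleave binding proteins. The HTRA1 call was lost without any 1 of 22 of the 29 libraries, with adjusted p up to 0.132 (without NAM replicate 8). ADAM9 was also the gene that was lower in group 1 than in group 2, at -0.74 ± 0.21 (adjusted p 0.0559).

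A further list held 5 tested genes, the binding and complex genes IGFBP7 and IGFALS, insulin (INS), and the insulin receptor family genes INSR and INSRR. Of these 5, 2 were called lower in PPGLs, 2 in group 1 and 1 in group 2, and 1 of 4 was higher in group 1 than in group 2. Their median log2 FC in PPGLs, the value of INSRR, was -0.65 (all genes 0.13). In PPGLs DESeq2 called 0 and 3 of the 5 higher and lower, and the Mann-Whitney U-test 0 and 3. IGFBP7, which binds IGFs weakly, ran from 451 to 2053 CPM (median 1471) in NAMs and from 121 to 2503 CPM (median 431) in PPGLs, at -1.19 ± 0.38 (adjusted p 0.0148). IGFALS, whose product holds IGFBP3 and IGFBP5 in ternary complexes, was at -1.67 ± 0.51 (adjusted p 0.0106) and at no more than 2.70 CPM in any NAM. INSRR, an insulin receptor-related kinase, ran from 5.75 to 67.8 CPM (median 17.1) in NAMs, from 0.268 to 136 CPM (median 11.2) in group 1 and from 0 to 10.3 CPM (median 1.16) in group 2. It was lower in group 2 than in NAMs at -3.26 ± 0.80 (adjusted p 0.00262), and at -3.91 (adjusted p 0.000584) without group 2 replicate 9. The call of INSRR as higher in group 1 than in group 2, at 3.87 ± 0.98 (adjusted p 0.0356), was lost without group 1 replicate 7, its highest tumor, at 2.69 (adjusted p 0.150), and was at 4.52 (adjusted p 0.0198) without group 2 replicate 9. Of 6 genes of growth hormone and JAK-STAT input, 2 were called lower in PPGLs, 3 in group 1 and 2 in group 2, and 1 was higher and 1 lower in group 1 than in group 2, with a median in PPGLs of -0.30 (all genes 0.13). DESeq2 and the Mann-Whitney U-test each called 2 lower in PPGLs. STAT5A, a transcription factor downstream of the growth hormone receptor, ran from 53.5 to 101 CPM (median 65.5) in NAMs and from 20.1 to 59.3 CPM (median 34.6) in PPGLs. It lay below each NAM in 18 of 19 tumors, with a log2 FC of -1.04 ± 0.13 (adjusted p 1.44e-06). CISH, a STAT5 target that dampens cytokine signaling, was at -1.88 ± 0.38 (adjusted p 0.000337), and SOCS2, a feedback inhibitor of growth hormone signaling, was called in group 1 at -1.61 ± 0.49 (adjusted p 0.0110) and against group 2 at -1.51 ± 0.48 (adjusted p 0.0879). The latter was lost without any 1 of 10 of the 19 libraries, with adjusted p up to 0.170 (without group 1 replicate 7), and the 1 higher call between the groups, STAT5A, without any 1 of 10.

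Downstream of IGF1R, 3 of 24 adaptor and PI3K-AKT-MTOR genes were called higher and 4 lower in PPGLs than in NAMs, 2 and 5 in group 1, 3 and 4 in group 2, and 0 and 1 between the groups. Over all genes 22.3% were called higher and 15.2% lower in PPGLs. DESeq2 called 3 and 5 of the 24 higher and lower there, and the Mann-Whitney U-test 3 and 5. The median log2 FC of the 24 in PPGLs was 0.065 (all genes 0.13). PIK3CA, a catalytic subunit of PI3K, ran from 48.4 to 209 CPM (median 75.1) in NAMs and from 13.7 to 67.3 CPM (median 30.6) in PPGLs, below each NAM in 18 of 19 tumors, with a log2 FC of -1.44 ± 0.23 (adjusted p 3.27e-05). IRS1, the docking protein of IGF1R, was at -1.54 ± 0.27 (adjusted p 9.46e-05) and GRB14, an adaptor that inhibits insulin receptor signaling, at -2.13 ± 0.51 (adjusted p 0.00162). The higher genes were PIK3R3, a regulatory subunit, at 1.05 ± 0.30 (adjusted p 0.00710), GRB2 at 0.45 ± 0.11 (adjusted p 0.00151) and RPTOR, part of the MTOR complex, at 0.44 ± 0.13 (adjusted p 0.00749). In group 1 AKT2 was called higher than in NAMs, at 0.36 to 0.51 with each library left out in turn (adjusted p 0.00367 to 0.0399). SHC1 was lower in group 1 than in group 2, at -0.73 ± 0.24 (adjusted p 0.0940), a call lost without any 1 of 13 of the 19 libraries, with adjusted p up to 0.195 (without group 1 replicate 7). Without group 1 replicate 3, 3 of the 24 were called lower in group 1, and 4 were called higher without replicate 4.

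Of the IGF2 mRNA-binding proteins and IGF2 regulators, edgeR called 0 of 3 tested in PPGLs against NAMs, with 2 at an unadjusted p below 0.05, while DESeq2 called 0 higher and 2 lower and the Mann-Whitney U-test 0 higher and 2 lower. Their median log2 FC was -0.24 (all genes 0.13). In the fits by group 4 were tested. IGF2BP3, which binds IGF2 mRNA, passed the filter there through tumors alone, with no NAM at its count cutoff. The filter thus favored a higher value in tumors, and no fitted difference is given. Its edgeR call in group 2 was lost without any 1 of 13 of the 29 libraries, with adjusted p up to 0.375 (without group 2 replicate 11). The Mann-Whitney U-test called 0 of the 4 higher in group 2. It ran from 0 to 0.365 CPM (median 0.129) in NAMs, from 0.117 to 2.36 CPM (median 1.24) in group 1 and from 0 to 4.99 CPM (median 0.277) in group 2. Apart from it, edgeR called 1 gene higher and 1 lower in group 2. PLAG1, a transcription factor that activates IGF2, was at 1.13 ± 0.44 (adjusted p 0.0476) in group 2, and CTCF, which binds the IGF2 imprinting control region, at -0.36 ± 0.11 (adjusted p 0.0125). The PLAG1 call was lost without any 1 of 18 of the 29 libraries. Between the groups edgeR called 0 of 4, with 1 at an unadjusted p below 0.05, and DESeq2 and the Mann-Whitney U-test 0 each. H19 and HMGA2 were not found by name.

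A list of imprinted genes of the fetal growth network and the DLK1 locus also held DLK2. Of its 9 genes tested, 4 were called higher and 0 lower in PPGLs than in NAMs, 4 and 0 in group 1, and 2 and 1 in group 2. In PPGLs DESeq2 called 4 and 1 higher and lower, and the Mann-Whitney U-test 3 and 2. Here the median log2 FC in PPGLs was 0.59 (all genes 0.13). MEST ran from 26.1 to 167 CPM (median 75.7) in NAMs and from 52.4 to 437 CPM (median 193) in PPGLs, at 1.32 ± 0.31 (adjusted p 0.00123), with 11 of 19 tumors above each NAM. PLAGL1 was at 0.95 ± 0.35 (adjusted p 0.0336) and SGCE at 0.69 ± 0.22 (adjusted p 0.0150). DLK2, the relative of DLK1, was called in group 1 at 1.97 ± 0.73 (adjusted p 0.0340), with 3 of 7 tumors above each NAM, and MAGEL2 was lower in group 2 at -1.98 ± 0.76 (adjusted p 0.0454). Between the groups edgeR called 0 of 9, with 1 at an unadjusted p below 0.05, and DESeq2 and the Mann-Whitney U-test 0 each. The calls were lost for PLAGL1 without any 1 of 9 of the 29 libraries, with adjusted p up to 0.0659 (without NAM replicate 8), for DLK2 without any 1 of 9 of the 29 libraries, with adjusted p up to 0.267 (without group 1 replicate 1), where it was at 1.02, and for MAGEL2 without any 1 of 19 of the 29 libraries, with adjusted p up to 0.0697 (without NAM replicate 3), while MAGEL2 was at -2.77 (adjusted p 0.00530) without group 2 replicate 9. The number of genes called higher was 2 in PPGLs without NAM replicate 1, 6 or 8, and 2 in group 1 without NAM replicate 1, 6, 7 or 8 or group 1 replicate 1. MEG3 and DIO3 of the DLK1 locus were not found by name, and RTL1 had at most 1 count in any sample.

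Each gene's pattern across samples was compared with the other named genes that passed the filter, 12809 in all, by the deviations of log2 levels from the group means over 29 samples. The samples share their libraries and their mix of cells in this measure, and it is given as a description, as Spearman's rho and Pearson's r. The genes most like IGF1 were CD93 (0.81 and 0.72), KDR (0.79 and 0.64) and EHD4 (0.77 and 0.69), of which KDR was in the endothelial marker list. IGF2 was most like TPM3 (0.71 and 0.65), PLIN3 (0.68 and 0.70) and KNG1 (0.63 and 0.60). IGF1R was most like GLT8D2 (0.80 and 0.74), PDGFRL (0.67 and 0.65) and LANCL3 (0.67 and 0.62), and IGF2R most like ITGAV (0.77 and 0.73), NPC1 (0.73 and 0.66) and SLC39A1 (0.73 and 0.65). The highest values were those of IGFBP4, with BMP6 (0.89 and 0.86), SELENOP (0.87 and 0.83) and ANXA2 (0.87 and 0.86), and of IGFBP2, with ABTB1 (0.88 and 0.86), SVEP1 (0.85 and 0.88) and PTX3 (0.82 and 0.87). IGFBP3 was most like PPP1R14A (0.79 and 0.79), INHBB (0.72 and 0.62) and METRNL (0.70 and 0.70). IGFBP5 was most like TCF12 (0.79 and 0.86), CHEK1 (0.76 and 0.77) and TRPM7 (0.71 and 0.62), a measure that includes its value in group 1 replicate 7. IGFBP6 was most like PGLS (0.81 and 0.84), AURKAIP1 (0.81 and 0.70) and RPL5 (0.80 and 0.61).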

How the data were processed

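The authors deposited a raw read count per Ensembl gene and sample, summed over exons, from single-end reads of stranded mRNA libraries aligned to CanFam3.1 with STAR; the submitters' processing notes name HTSeq while the deposited table has the columns of featureCounts, and the strand setting of the counting and multi-mapping were not stated. Genes were filtered with filterByExpr (minimum count 10, minimum total 15), normalized by TMM and tested by edgeR's QL F test, with Benjamini-Hochberg correction over all genes tested, in R 4.3.3 with edgeR 4.0.16. PPGLs were fitted with NAMs in 2 groups, each PPGL group against NAMs in a 3-group fit, and the PPGL groups in the 19 PPGLs. Log2 levels used a prior count of 2. The steps were tested on simulated data.

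All 10 members are named, and from the 6 pathway lists those called are named up to 3 each way in any comparison, by size of log2 FC, with MMP2, INS and INSR besides. The 9 marker lists are given as counts and sums, and by the genes that mark a library. The values of 1 marker are not reported here. For each member the 3 genes with the highest rho are given. Members and lists were chosen with earlier results of these data known. Alternatives were other size factors, no filter, DESeq2 1.42.0, a two-sided Mann-Whitney U-test (exact without ties), a replicate block, a cortical covariate, a 3-group fit and each library left out. Leaving out group 1 replicates 5 and 7 together, each sample in the order per kb, the rho of IGFBP4 with cortical sums, each library left out for list genes, and the check of which side reached the filter's cutoff were chosen after seeing the data. Plots used matplotlib 3.10.9.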

Additional observations from a re-analysis of the deposited data

Results flagged for a closer look

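In 20 groups of 10 or fewer samples, 1 per gene for NAMs and for group 1, the highest and lowest sample were compared with the nearest other sample by Dixon's test, and 2 groups had a sample that stood out. Chance alone gives about 1 in 20. IGF1R in NAM replicate 3 was at 191 CPM, and the next highest NAM was at 117 CPM. IGFBP5 in PPGL group 1 replicate 7 was at 243 CPM, and the next highest tumor of the group was at 12.1 CPM. The group of 12 tumors was too large for this test.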

How the results depend on the processing

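Over 1260 log2 FC values of 9 genes under the alternatives, 1144 kept direction and side of the threshold, 34 lost a call, 29 gained one and 53 changed sign, of which 1 belonged to a called result, IGFBP3 in group 1 with the cortical covariate. The Mann-Whitney U-test carried edgeR's log2 FC, so its values among these could not change sign. The number of genes called for PPGLs against NAMs, 2, was 4 by DESeq2, 4 by the Mann-Whitney U-test, 4 with the replicate block and 0 with the covariate. The covariate gave 0 in the other comparisons too, and over all genes it gave 1226 higher and 998 lower for all PPGLs, 675 and 423 for group 2, 11 and 4 for group 1 and 0 between the groups. Between the groups the number, 1, was 2 by DESeq2, 3 in the 3-group fit, and 0 with the replicate block or without group 1 replicates 5 and 7. With the replicate block it was 4 for group 1 and 2 for group 2. Over 24 pairs of samples with the same number r was -0.23 to 0.25 (median -0.013, 2 over 0.1), and 4 of 29 samples correlated best with their own number. The number is a running number in the sample titles, and the labels give no pairing. Calls gained or lost with the replicate block are therefore given as a description of the fit only. Leaving out each library gave 2 to 3 calls for all PPGLs, 2 to 5 for group 1, 2 in each fit for group 2 and 1 to 2 between the groups. The lowest for group 1 came without NAM replicate 7 or group 1 replicate 3, 5 or 6, and the 2 between the groups without group 1 replicate 4. Signs changed as follows, and the cause was not tested. With the covariate, log2 FC for all PPGLs was 0.35 for IGF1, -0.47 for IGFBP3 and 0.55 for IGFBP6. For group 1 it was -0.28 for IGFBP2, -0.66 for IGFBP3 and -4.03 for IGFBP5, for group 2 0.24 for IGF1 and -0.52 for IGFBP3, and between the groups -0.49 for IGFBP3 and -2.08 for IGFBP5. IGFBP5 was at -1.52 (DESeq2), -0.90 (replicate block) and -1.75 (without replicates 5 and 7) for group 1, and at -0.81, -0.16 and -0.91 between the groups. The replicate block gave -0.37 for IGFBP6 in group 2, and leaving out replicates 5 and 7 gave 0.022 for IGF2 between the groups. Library size alone gave 0.14 for IGFBP5 in all PPGLs and 0.17 for IGFBP2 between the groups, and it moved the median of all genes by 0.11 for group 1. Leaving out each library gave log2 FC of -1.05 to 0.072 for IGFBP5 in all PPGLs, -1.69 to 0.93 in group 1 and -0.87 to 1.75 between the groups. The range was -0.63 to 0.019 for IGF1 and -0.17 to 0.26 for IGFBP6 in group 2, and between the groups -0.017 to 0.48 for IGF1R, -0.15 to 0.058 for IGF2R and -0.73 to 0.37 for IGFBP2. With medians in place of means, ranks per kb moved in both PPGL groups and in no NAM rank. Leaving out each sample moved 6 of 100 ranks in NAMs, 11 of 70 in group 1 and 25 of 120 in group 2. Of 120 counts of pathway and marker genes called, 47 moved, by a ratio over 3 to 2 or to or from 0, without at least 1 library, and of 69 calls of pathway genes 18 were lost without at least 1, with 0 changes of sign. Depth limited DLK1 in all groups, and IGFBP2 and IGFBP3 in 1 group 1 tumor each.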
